A study of Rattus norvegicus with 16 samples.

Results

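Glutathione S-transferases are the enzymes that join the tripeptide glutathione to reactive compounds, and their mRNA was compared here in rat kidney epithelial cells and fibroblasts kept together in control or acidic medium. A gene was taken as a member when its symbol began with Gst followed by a class letter (a, m, o, p, t, k or z) and a number, or with Mgst and a number. The count table has 32623 genes, and 25 of them met this rule. Some RefSeq symbols of the same pattern, among them Gstm2 and Gstp3, were not analysed here.

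NRK-52E is an epithelial line from normal rat kidney that often stands in for proximal tubule cells, and NRK-49F cells are fibroblasts of the same organ. The epithelial cells grew on filter inserts set into wells with the fibroblasts, so that both shared the medium but were lysed apart. After 24 h without serum they were kept for 48 h at pH 7.4 or pH 6.0, which the sample labels write as 7 and 6, to ask how acidosis acts on cells that can signal to each other. Every library came from co-culture and from an established line, so the data hold no line kept alone and no tissue. There were 4 libraries in each of the 4 groups, numbered N1, N2, N5 and N6 for NRK-52E at pH 7.4, N3, N4, N7 and N8 for NRK-52E at pH 6.0, N9, N10, N13 and N14 for NRK-49F at pH 7.4, and N11, N12, N15 and N16 for NRK-49F at pH 6.0. Values of the libraries of a group are given below in that order. Nothing in the labels says that the 4 libraries of a group came from separate cultures, so p-values measure the spread between these samples. The column names of the table carry a second number, whose meaning is not stated. It is 21 for N1 to N4 and 22 for N5 to N8 in NRK-52E, and 20 for N9 to N12 and 21 for N13 to N16 in NRK-49F, so each number holds 2 libraries of each pH.

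Total counts ranged from 16844811 to 23856187 in the NRK-52E libraries and from 16201084 to 34784862 in those of NRK-49F. Levels are given in FPM, the counts divided by the library total and its TMM factor, edgeR's correction for composition, and scaled to 1000000 fragments. Gene length does not enter them, and levels are therefore compared between groups and not between genes.

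The markers of the cell lines were read before the enzymes. Of 12 epithelial markers, Krt8 drew the most fragments in NRK-52E cells, with 430 ± 32.0 FPM at pH 7.4 against 316 ± 27.4 FPM at pH 6.0 (mean ± SD, n = 4), but it reached 848 ± 70.4 FPM in the fibroblasts at pH 7.4. Krt7 had a mean of 36.7 FPM and Ocln of 41.2 FPM in NRK-52E at pH 7.4, and the highest mean of either in an NRK-49F group was 0.463 FPM. Epcam, Krt18, Cdh16, Cldn4, Cldn7, Pax8 and Esrp1 were at or near 0 in NRK-52E, none with a group mean above 0.136 FPM. Cdh1 had 1.62 FPM there at pH 7.4 and 0.315 FPM at pH 6.0. Of 8 proximal tubule markers Aqp1 drew the most, with 34.4 and 26.4 FPM in NRK-52E at pH 7.4 and pH 6.0, but NRK-49F had 21.8 and 41.6 FPM. Hnf4a and Slc34a1 had a mean of 0 in NRK-52E. The epithelial and tubular labels of NRK-52E thus had few of their defining markers behind them, and that line is called by name below. The word fibroblasts stands for NRK-49F by its label only. In bulk samples such as these, fewer cells of a type and less RNA per cell cannot be told apart.

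The libraries of the lines could be told apart all the same. Pdgfra averaged 392 FPM in NRK-49F and 0.286 FPM in NRK-52E at pH 7.4, Prrx1 64.9 and 0.0102 FPM, and Col1a1 6205 and 23.6 FPM. Of the 12 fibroblast markers 3 had the higher mean in NRK-52E at pH 7.4: Col3a1 (6221 against 458 FPM), Col5a1 (369 against 341 FPM) and Dcn (0.718 against 0.470 FPM). Thy1 was at 0 in all 16 libraries. The summed fibroblast markers lay between 7124 and 7546 FPM in NRK-52E and between 14065 and 15522 FPM in NRK-49F at pH 7.4. At pH 6.0 these sums were 2385 to 3761 FPM and 10525 to 12382 FPM. In NRK-49F the mean of Vim went from 7108 to 2588 FPM, whereas Col1a1 and Prrx1 had higher means at pH 6.0, 8288 and 82.2 FPM. The epithelial sum in NRK-52E was 470 to 542 FPM at pH 7.4 but 311 to 377 FPM in acid, and that of NRK-49F was 787 to 950 FPM and then 200 to 221 FPM. Markers of cell identity thus moved with pH too. Ptprc, the pan-leukocyte marker, was at 0 in every library, while Cd68 of the same 4-gene immune list went in NRK-49F from a mean of 81.2 FPM at pH 7.4 to 243 FPM. Of the endothelial markers Tek stood at 41.1 FPM in NRK-52E at pH 7.4 and at 7.02 FPM at pH 6.0, and Kdr was at 0 in all groups.

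The family has soluble enzymes, which pair as dimers within a class, and membrane-bound enzymes of the unrelated MAPEG group, here the Mgst genes. They catalyse the attack of the glutathione thiol on electrophiles, and many also reduce lipid hydroperoxides; the conjugates leave the cell through transporters and are trimmed to mercapturates, a step for which the kidney is known. In kidney the alpha class is typical of the proximal tubule and the pi class of more distal segments, and several members are known targets of the transcription factor Nrf2, which binds the antioxidant response element.

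Of the 25 members, 15 were well measured, with a mean of at least 10 FPM in 1 or more of the groups, and 3 had a highest group mean of 1 to below 10 FPM (Gsta5, Gsto2 and Gstk1). The other 7 stayed below 1 FPM on average in each group. A member was called when its false discovery rate (FDR) over all genes tested was below 0.01 in edgeR and in DESeq2 with the same sign. In NRK-52E cells 17 members passed the filter on low counts; 7 of them were called higher at pH 6.0, where 28.2% of all 13735 genes tested were, and 2 were called lower, where 28.5% of all genes were. The median log2 fold change was 0.33 over these members and 0.00 over all genes. In NRK-49F cells 19 members were tested, 9 were called higher against 18.4% of all 13339 genes, and 4 lower against 19.4%. Their median was 0.44, beside -0.00 over all genes. A member could pass the filter through the group in which it was high, so these counts and medians describe the tested members only. Gsta5 and Gsta2, both called higher in NRK-49F, had summed counts of only 3 and 1 there at pH 7.4. Their log2 fold changes of 5.35 and 5.73 lie above the NRK-49F median, which would be lower without them.

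**Figure D1:**
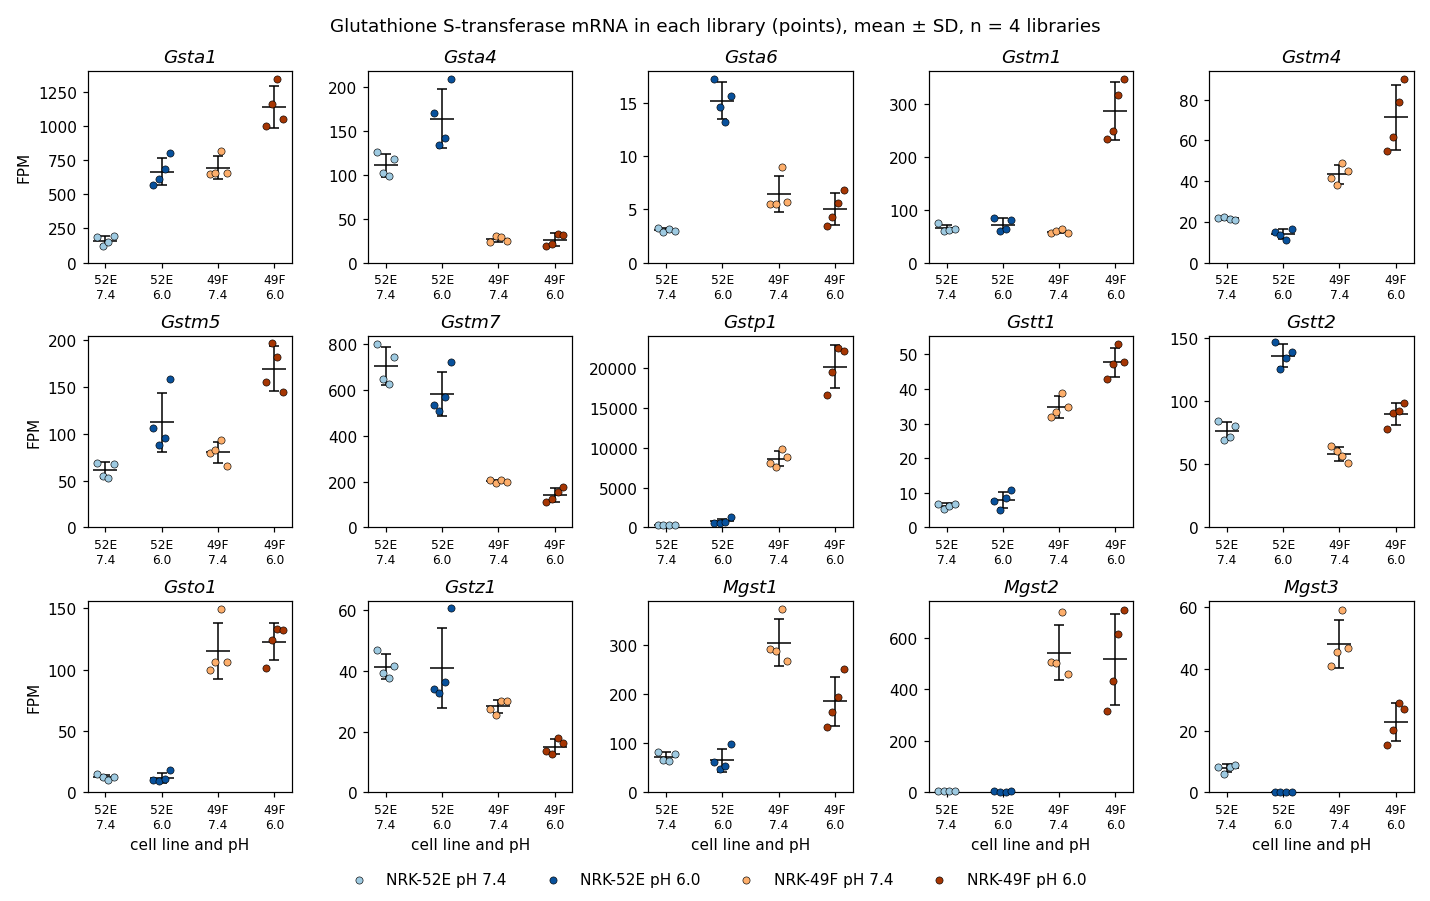
Level in FPM (vertical axes, linear, from 0) of the 15 well measured members in each of the 16 libraries, by cell line and pH (horizontal axes); points are libraries, long dashes the group means and bars the SD (n = 4). Gstp1 in NRK-49F runs from 7624 to 22485 FPM, above every NRK-52E library, and Mgst3 is near 0 in NRK-52E at pH 6.0.

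In the alpha class Gsta1 rose in both lines, a subunit known for peroxidase activity towards lipid hydroperoxides. In NRK-52E cells Gsta1 stood at 185, 118, 148 and 192 FPM at pH 7.4 and at 568, 617, 684 and 801 FPM at pH 6.0. The lowest of the latter exceeded the highest of the former, with a log2 fold change of 2.03 (SE 0.17, edgeR adjusted p = 2.02e-06), and it was 1.93 and 2.11 within the numbers 21 and 22. In NRK-49F cells Gsta1 was 648, 661, 820 and 659 FPM at pH 7.4 and 1002, 1168, 1347 and 1055 FPM at pH 6.0. The groups again did not overlap, and the log2 fold change was 0.70 (SE 0.12, edgeR adjusted p = 4.84e-04), or 0.73 and 0.68 within the numbers 20 and 21, the latter not called. The NRK-52E effect exceeded the NRK-49F effect by 1.32 (SE 0.21, edgeR adjusted p = 4.84e-05) on the log2 scale. Gsta1 was nevertheless lower in NRK-52E than in NRK-49F at both pH values, with log2 differences of -2.12 at pH 7.4 and -0.79 at pH 6.0.

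Gsta6 moved in NRK-52E. This alpha-class gene had 3.23, 2.87, 3.11 and 2.95 FPM there at pH 7.4 and 17.2, 14.6, 13.2 and 15.7 FPM at pH 6.0, a tight and fully separated pair of groups with a log2 fold change of 2.30 (SE 0.16, edgeR adjusted p = 6.12e-07) and values of 2.34 and 2.23 within the numbers. In NRK-49F it had 5.49, 5.46, 8.95 and 5.69 FPM at pH 7.4 and 3.41, 4.24, 5.62 and 6.82 FPM at pH 6.0. Those ranges overlapped, and the log2 fold change was -0.35 (95% confidence interval -0.89 to 0.19, edgeR adjusted p = 0.254). The effects differed by 2.63 (SE 0.30, edgeR adjusted p = 1.58e-06), and the order of the lines turned with it: NRK-52E was lower at pH 7.4 (log2 difference -1.07) and higher at pH 6.0 (1.56), both called.

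Gsta4 encodes the alpha enzyme with high activity towards hydroxynonenal, an aldehyde formed in lipid peroxidation. NRK-52E cells held Gsta4 at 126, 102, 98.3 and 118 FPM at pH 7.4 and 170, 134, 142 and 209 FPM at pH 6.0, without overlap. The log2 fold change was 0.55 (SE 0.15, edgeR adjusted p = 0.00746), with 0.38 and 0.69 within the numbers and neither of these called. This call was lost when N2, N3, N5 or N6 was left out (log2 fold changes 0.51, 0.53, 0.47 and 0.55), with library totals in place of TMM factors (0.34), in a fit of all 16 libraries (0.54) and with the second number as covariate (0.55). In NRK-49F Gsta4 was 23.7, 30.2, 29.4 and 24.0 FPM at pH 7.4 and 18.5, 21.4, 33.0 and 31.2 FPM at pH 6.0. Those ranges overlapped, with a log2 fold change of -0.06 (95% confidence interval -0.45 to 0.33, edgeR adjusted p = 0.800), and it was -0.44 and 0.25 within the numbers, of opposite sign. The difference between the effects was 0.59 (95% confidence interval 0.07 to 1.10, edgeR adjusted p = 0.0539). NRK-52E exceeded NRK-49F in every library at both pH values, by 2.05 (SE 0.18, edgeR adjusted p = 7.65e-09) at pH 7.4 and 2.63 (SE 0.18, edgeR adjusted p = 2.08e-10) at pH 6.0.

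The remaining alpha genes were rare. Gsta5 and Gsta2 were close to absent except in fibroblasts at pH 6.0, where Gsta5 had 31, 17, 77 and 70 counts and Gsta2 20, 10, 35 and 38 counts. At pH 7.4 the same line had 2, 0, 1 and 0 and 0, 0, 1 and 0 counts, and no library reached the level of any at pH 6.0. The ratio of the summed, scaled counts was 50.3 for Gsta5 (exact 95% interval 17.0 to 246) and 79.8 for Gsta2 (14 to 3181), and these intervals cover counting error only. edgeR gave log2 fold changes of 5.35 (SE 0.64, edgeR adjusted p = 2.73e-05) for Gsta5, which was 6.34 without N9, and 5.73 (SE 0.70, edgeR adjusted p = 3.53e-05) for Gsta2, and both were called. The pH 7.4 side rests on 3 counts for Gsta5 and on 1 count, in N13, for Gsta2. In NRK-52E they passed no filter, with summed counts of 1 at pH 7.4 for each gene and of 14 for Gsta5 and 8 for Gsta2 at pH 6.0. Between the lines at pH 6.0 NRK-49F was above NRK-52E by a ratio of 11.7 (6.80 to 21.8) for Gsta5 and 10.8 (5.28 to 25.7) for Gsta2, both called. The Gsta5 difference, -3.39 as edgeR's log2 value, was -4.54 without N3. Gsta3 had at most 16 counts in any library and was not tested.

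Among the mu-class genes Gstm1 showed the largest difference between the lines in its response to pH. In NRK-49F it was 55.7, 59.3, 62.6 and 56.5 FPM at pH 7.4 and 234, 248, 316 and 348 FPM at pH 6.0. All libraries at pH 6.0 stood above those at pH 7.4, with a log2 fold change of 2.27 (SE 0.13, edgeR adjusted p = 1.13e-07) and 2.07 and 2.46 within the numbers. In NRK-52E it was 74.5, 59.3, 60.9 and 63.0 FPM at pH 7.4 and 84.0, 59.1, 62.7 and 80.2 FPM at pH 6.0, overlapping ranges with a log2 fold change of 0.13 (95% confidence interval -0.17 to 0.44, edgeR adjusted p = 0.402). The effects differed by -2.16 (SE 0.19, edgeR adjusted p = 9.27e-08). At pH 7.4 the lines overlapped, with a log2 difference of 0.14 (95% confidence interval -0.15 to 0.42, edgeR adjusted p = 0.373), which was 0.53 and called with library totals. At pH 6.0 NRK-52E lay lower, at -2.02 (SE 0.14, edgeR adjusted p = 2.06e-10).

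Gstm4 changed in opposite directions. NRK-52E had 22.1, 22.2, 21.3 and 21.04 FPM at pH 7.4 and 15.1, 13.53, 11.1 and 16.6 FPM at pH 6.0, so that every library at pH 6.0 was lower, with a log2 fold change of -0.64 (SE 0.15, edgeR adjusted p = 0.00261). NRK-49F had 41.4, 38.1, 49.1 and 45.1 FPM at pH 7.4 and 54.6, 61.9, 78.7 and 90.3 FPM at pH 6.0, and here every library at pH 6.0 was higher, with 0.70 (SE 0.15, edgeR adjusted p = 0.00164). Within the numbers the log2 fold changes were -0.67 and -0.63 in NRK-52E, not called with 2 libraries per pH, and 0.55 and 0.82 in NRK-49F, both called. The difference between the effects was -1.36 (SE 0.21, edgeR adjusted p = 3.96e-05). Gstm4 was lower in NRK-52E than in NRK-49F at pH 7.4 (2.01-fold) and further below at pH 6.0 (5.14-fold).

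Gstm5, another mu-class subunit, rose in both lines. Its levels in NRK-52E were 68.8, 55.1, 52.7 and 67.8 FPM at pH 7.4 and 106, 88.6, 96.0 and 159 FPM at pH 6.0, and in NRK-49F they were 79.6, 83.1, 93.3 and 65.5 FPM and 156, 198, 182 and 144 FPM. Neither pair of groups overlapped. The log2 fold changes were 0.86 (SE 0.19, edgeR adjusted p = 0.00169) in NRK-52E and 1.06 (SE 0.13, edgeR adjusted p = 4.06e-05) in NRK-49F, with 0.61 and 1.07 within the numbers of NRK-52E, neither called, and 1.12 and 1.02 within those of NRK-49F, both called. The effects differed by -0.22 (95% confidence interval -0.70 to 0.27, edgeR adjusted p = 0.457). At pH 6.0 NRK-52E was called lower than NRK-49F, at -0.61 (SE 0.16, edgeR adjusted p = 0.00249), although the ranges overlapped through N8. That call was lost without N3 (-0.57), N4 (-0.51), N7 (-0.54), N12 (-0.54) or N15 (-0.59), and with library totals (-0.47). At pH 7.4 the difference was -0.40 (95% confidence interval -0.74 to -0.05, edgeR adjusted p = 0.0389).

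Gstm7 fell in the fibroblasts. In NRK-49F it was 209, 195, 206 and 197 FPM at pH 7.4 and 112, 123, 153 and 177 FPM at pH 6.0, without overlap and with a log2 fold change of -0.53 (SE 0.13, edgeR adjusted p = 0.00368). The values within the numbers were -0.78 and -0.31, of which the first was called, and the pooled call was lost without N9 (-0.52) or N12 (-0.47). In NRK-52E Gstm7 was 802, 648, 626 and 744 FPM at pH 7.4 and 534, 507, 571 and 723 FPM at pH 6.0, with overlap and a log2 fold change of -0.29 (95% confidence interval -0.58 to 0.01, edgeR adjusted p = 0.0752). Without N8, or with library totals in place of TMM, it was called lower there as well, at -0.42 and -0.50. The effects of pH differed by 0.23 (95% confidence interval -0.18 to 0.63, edgeR adjusted p = 0.342). NRK-52E had the higher level at both pH values, by 1.80 (SE 0.14, edgeR adjusted p = 1.33e-09) and 2.03 (SE 0.14, edgeR adjusted p = 2.32e-10). The mu-class genes Gstm3l, Gstm6 and Gstm6l had at most 6 counts in any library.

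Gstp1 is the pi-class enzyme, known as a marker of altered foci in rat liver and as an inhibitor of Jun kinase. NRK-49F cells held it at 8147, 7624, 9810 and 8840 FPM at pH 7.4 and 16645, 19484, 22485 and 22135 FPM at pH 6.0. It took 0.777% ± 0.0661 of all counts at pH 7.4 and 1.86% ± 0.215 at pH 6.0 (mean ± SD, n = 4). NRK-52E cells held it at 353, 322, 285 and 360 FPM at pH 7.4 and 625, 553, 644 and 1252 FPM at pH 6.0. Both lines showed full separation of the pH groups, with N8 far above the other NRK-52E libraries. The log2 fold change was 1.21 (SE 0.13, edgeR adjusted p = 1.21e-05) in NRK-49F and 1.21 (SE 0.24, edgeR adjusted p = 0.00103) in NRK-52E. Leaving out N8 gave 0.86 in NRK-52E, still called. Within the numbers it was 1.20 and 1.24 in NRK-49F, both called, and 0.76 and 1.55 in NRK-52E, where the value for 22, which includes N8, was not called. The difference between the effects was -0.02 (95% confidence interval -0.62 to 0.57, edgeR adjusted p = 0.967).

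The gap between the lines was wide for Gstp1 at either pH. NRK-52E lay below NRK-49F, with log2 differences of -4.71 (SE 0.23, edgeR adjusted p = 1.95e-12) at pH 7.4 and -4.73 (SE 0.23, edgeR adjusted p = 1.66e-12) at pH 6.0. By the ratio of mean FPM its level was 3.83% and 3.81% of that in the fibroblasts.

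The theta class acts on small halogenated compounds and sulfate esters, and its well measured members, Gstt1 and Gstt2, lie together on chromosome 20. Gstt2 rose in both lines. In NRK-52E it was 84.2, 69.4, 71.3 and 80.4 FPM at pH 7.4 and 147, 125, 134 and 139 FPM at pH 6.0, and in NRK-49F it was 64.1, 60.7, 56.2 and 51.1 FPM and 78.2, 90.3, 92.0 and 98.9 FPM, with no overlap in either. The log2 fold changes were 0.82 (SE 0.10, edgeR adjusted p = 2.40e-05) and 0.62 (SE 0.10, edgeR adjusted p = 3.45e-04), in that order. They were 0.78 and 0.83 within the numbers of NRK-52E and 0.44 and 0.81 within those of NRK-49F, all called. Their difference was 0.19 (95% confidence interval -0.11 to 0.48, edgeR adjusted p = 0.279). NRK-52E had slightly more Gstt2 at both pH values, by 0.39 and 0.58, both called.

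Gstt1 was higher in the fibroblasts. It stood at 31.8, 33.4, 39.0 and 34.9 FPM at pH 7.4 and 42.8, 47.4, 53.0 and 47.7 FPM at pH 6.0 in NRK-49F, where every library at pH 6.0 was above those at pH 7.4 and the log2 fold change was 0.44 (SE 0.10, edgeR adjusted p = 0.00344). The values within the numbers were 0.47 and 0.43, the latter not called, and the pooled call was lost without N9 (0.40), N10 (0.43), N12 (0.44) or N15 (0.40), and in a fit of all 16 libraries (0.44). NRK-52E had 6.70, 5.41, 6.26 and 6.90 FPM at pH 7.4 and 7.65, 5.12, 8.57 and 10.8 FPM at pH 6.0, overlapping ranges with a log2 fold change of 0.33 (95% confidence interval -0.17 to 0.83, edgeR adjusted p = 0.213), and the difference from NRK-49F was -0.13 (95% confidence interval -0.61 to 0.36, edgeR adjusted p = 0.683). Between the lines NRK-52E was lower, with log2 differences of -2.46 (SE 0.17, edgeR adjusted p = 2.62e-10) at pH 7.4 and -2.59 (SE 0.17, edgeR adjusted p = 9.92e-11) at pH 6.0. Gstt3 had a highest group mean of 0.666 ± 0.235 FPM, in NRK-49F at pH 7.4, and a log2 fold change of -0.70 (95% confidence interval -1.65 to 0.25, edgeR adjusted p = 0.196) in that line. Gstt4 had at most 6 counts in any library and none in NRK-52E.

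Gsto1, an omega-class enzyme that reduces dehydroascorbate and removes glutathione from proteins, separated the lines and not the pH values. NRK-52E had 12.6 ± 1.76 FPM at pH 7.4 (mean ± SD, n = 4) and 9.85, 9.13, 10.7 and 18.0 FPM at pH 6.0, and NRK-49F had 99.9, 106, 149 and 106 FPM and 101, 124, 133 and 132 FPM. The log2 fold change with pH was -0.09 (95% confidence interval -0.60 to 0.41, edgeR adjusted p = 0.725) in NRK-52E, where it was -0.55 and 0.28 within the numbers, neither called, and 0.07 (95% confidence interval -0.22 to 0.37, edgeR adjusted p = 0.668) in NRK-49F. NRK-52E was the lower line, at -3.19 (SE 0.19, edgeR adjusted p = 3.80e-11) at pH 7.4 and -3.38 (SE 0.20, edgeR adjusted p = 1.67e-11) at pH 6.0. Its relative Gsto2 was at a low level. In NRK-52E it went from 0.610 ± 0.131 FPM at pH 7.4 to 2.98 ± 0.937 FPM (mean ± SD, n = 4), a rise of 2.26 (SE 0.31, edgeR adjusted p = 8.88e-05) with no overlap and 2.01 and 2.43 within the numbers, the first not called. In NRK-49F the means were 1.28 ± 0.256 and 2.33 ± 0.698 FPM, again without overlap, but the log2 fold change of 0.85 (95% confidence interval 0.22 to 1.47, edgeR adjusted p = 0.0258) was not called at 0.01. The difference between the effects was 1.39 (95% confidence interval 0.49 to 2.29, edgeR adjusted p = 0.0117), past the threshold in DESeq2 alone. It was called with the second number as covariate (1.41) and without N3, N9 or N15 (1.48 to 1.57). At pH 7.4 the lines differed by -1.07 (95% confidence interval -1.75 to -0.38, edgeR adjusted p = 0.00733), past the threshold in edgeR alone, and this was called without N3 (-0.94), N5 (-1.21) or N9 (-1.19).

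Gstk1, a kappa-class enzyme of mitochondria and peroxisomes, was detected in NRK-52E and hardly in NRK-49F. Its counts were 34, 53, 33 and 44 at pH 7.4 and 52, 39, 60 and 79 at pH 6.0 in NRK-52E, or means of 1.81 ± 0.389 and 2.78 ± 0.854 FPM. In NRK-49F they were 0, 0, 0 and 2 at pH 7.4, so that N14 alone had any, and 0, 0, 0 and 0 at pH 6.0. At pH 7.4 the ratio of NRK-52E to NRK-49F was 70.2 (exact 95% interval for counting error 19.1 to 584). This ratio rests on the 2 counts of N14, and edgeR's log2 difference of 5.87 was 8.32 without that library. At pH 6.0 NRK-52E was at least 73.7-fold higher by the exact 95% interval for counting error. With 3 counts over the 4 fibroblast libraries as the floor the ratio was 91.4, and both line differences were called. The log2 fold change with pH in NRK-52E was 0.60 (95% confidence interval -0.04 to 1.24, edgeR adjusted p = 0.0855).

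Gstz1, which isomerises maleylacetoacetate in the breakdown of tyrosine, fell in the fibroblasts. It was 27.6, 25.6, 30.2 and 30.0 FPM at pH 7.4 and 13.6, 12.6, 17.8 and 16.3 FPM at pH 6.0 in NRK-49F. No library at pH 6.0 reached the lowest one at pH 7.4, and the log2 fold change was -0.92 (SE 0.13, edgeR adjusted p = 8.34e-05), with -1.01 and -0.84 within the numbers, both called. NRK-52E had 47.0, 39.4, 37.6 and 41.5 FPM at pH 7.4 and 34.1, 32.7, 36.2 and 60.7 FPM at pH 6.0, where N8 alone lay above the range at pH 7.4. The log2 fold change there was -0.03 (95% confidence interval -0.46 to 0.40, edgeR adjusted p = 0.904), without N8 it was -0.29, and within the numbers it was -0.41 and 0.28, none of them called. The effects differed by 0.87 (SE 0.24, edgeR adjusted p = 0.00553), a call that was lost without N2, N5, N6, N11, N12, N13 or N14 (0.80 to 0.87) and with library totals (0.64). NRK-52E was higher by 1.42 (SE 0.17, edgeR adjusted p = 5.60e-07) at pH 6.0, and by 0.54 (SE 0.17, edgeR adjusted p = 0.00759) at pH 7.4. The call at pH 7.4 was lost without N1, N2, N6, N9, N10, N13 or N14 (0.48 to 0.57).

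The membrane enzymes held the steepest fall of the family. Mgst3, known for peroxidase activity towards lipid hydroperoxides, had 179, 149, 195 and 190 counts in NRK-52E at pH 7.4 and 2, 0, 1 and 6 counts at pH 6.0, or 7.90 ± 1.27 and 0.111 ± 0.125 FPM (mean ± SD, n = 4). The ratio of the summed, scaled counts was 73.5 in favour of pH 7.4 (exact 95% interval for counting error 38.5 to 161), and edgeR's log2 fold change was -6.14 (SE 0.48, edgeR adjusted p = 1.33e-06). It rests on 9 counts at pH 6.0, of which 6 were in N8, and was -7.23 without that library. In NRK-49F Mgst3 was 41.0, 45.3, 59.1 and 46.8 FPM at pH 7.4 and 15.3, 20.1, 29.0 and 26.9 FPM at pH 6.0, also without overlap, with a log2 fold change of -1.09 (SE 0.18, edgeR adjusted p = 3.74e-04). Within the numbers the values were -7.00 and -5.75 in NRK-52E and -1.30 and -0.94 in NRK-49F, all called. The effects differed by -5.08 (SE 0.49, edgeR adjusted p = 2.32e-07), or -6.16 without N8. NRK-52E was lower than NRK-49F, at -2.60 at pH 7.4 and -7.68 at pH 6.0, both called, the latter -8.76 without N8.

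Mgst1, which sits in the endoplasmic reticulum and the outer mitochondrial membrane, fell in NRK-49F. There it was 293, 288, 374 and 267 FPM at pH 7.4 and 133, 164, 195 and 251 FPM at pH 6.0. The groups did not overlap, and the log2 fold change was -0.74 (SE 0.17, edgeR adjusted p = 0.00347), with -0.97 and -0.54 within the numbers, the latter not called. The pooled call was lost without N12 (-0.69) or N15 (-0.75). NRK-52E had 82.7, 66.1, 63.2 and 78.6 FPM at pH 7.4 and 62.1, 47.5, 53.9 and 99.0 FPM at pH 6.0. N8 was again the highest library, and the log2 fold change was -0.16 (95% confidence interval -0.63 to 0.31, edgeR adjusted p = 0.523); without N8 it was -0.44 and called, and within the numbers it was -0.48 and 0.10, not called. The difference between the effects was 0.56 (95% confidence interval -0.05 to 1.17, edgeR adjusted p = 0.116). NRK-52E was lower than NRK-49F, at -2.07 (SE 0.21, edgeR adjusted p = 6.57e-08) at pH 7.4 and -1.52 (SE 0.21, edgeR adjusted p = 2.80e-06) at pH 6.0.

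Mgst2, which can form cysteinyl leukotrienes, drew far more fragments in NRK-49F than in NRK-52E. NRK-49F had 506, 501, 699 and 461 FPM at pH 7.4 and 316, 431, 613 and 708 FPM at pH 6.0, and NRK-52E had 6.51, 4.14, 4.519 and 6.24 FPM and 5.26, 3.42, 3.11 and 7.01 FPM. NRK-52E lay far below, with log2 differences of -6.67 (SE 0.31, edgeR adjusted p = 5.93e-13) at pH 7.4 and -6.81 (SE 0.31, edgeR adjusted p = 4.86e-13) at pH 6.0. By the ratio of mean FPM that is 0.988% and 0.909% of the fibroblast level. The pH groups overlapped in both lines. The log2 fold change was -0.20 (95% confidence interval -0.84 to 0.44, edgeR adjusted p = 0.550) in NRK-52E and -0.09 (95% confidence interval -0.56 to 0.38, edgeR adjusted p = 0.753) in NRK-49F, where it was -0.43 and 0.17 within the numbers, of opposite sign and not called.

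**Figure D2:**
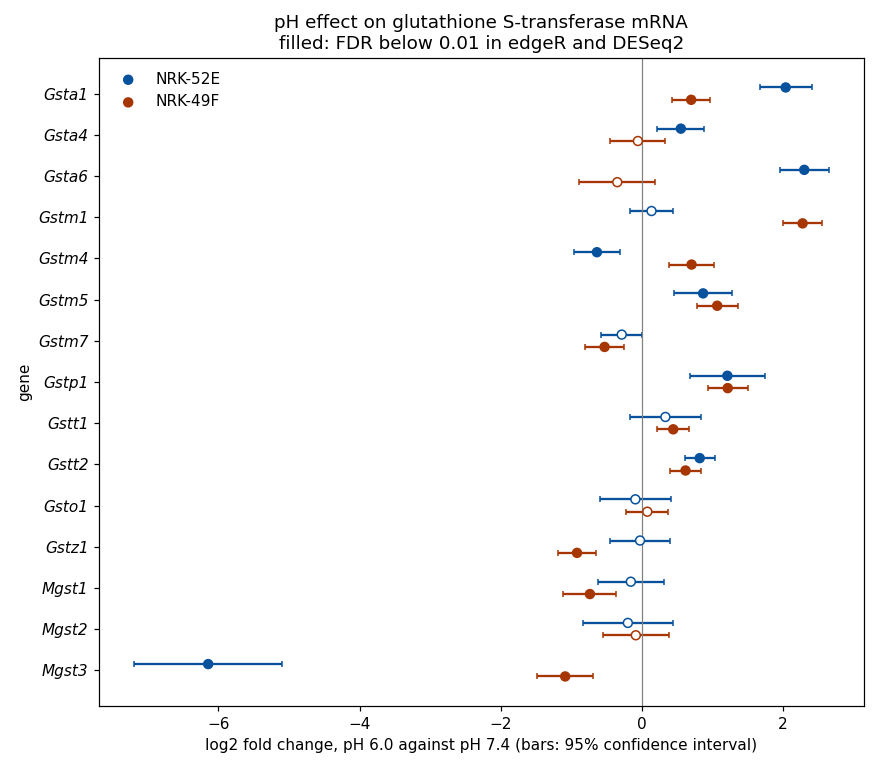
Log2 fold change of pH 6.0 against pH 7.4 (horizontal axis) for the 15 well measured members (vertical axis) in NRK-52E and NRK-49F, with 95% confidence intervals as bars; filled points were called in edgeR and DESeq2. Gstm4 lies at -0.64 in NRK-52E but at 0.70 in NRK-49F, and Mgst3 in NRK-52E lies at -6.14.

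Between the lines at pH 7.4, 5 of 19 tested members were called higher in NRK-52E, where 27.9% of 14679 genes were, and 9 lower, where 31.9% of all genes were. The median difference was -1.07 over the members and -0.05 over all genes. At pH 6.0, 6 were higher against 30.7% of all genes and 12 lower against 32.5%, with medians of -1.52 and -0.02. The first of these medians is the same with Gstk1 at its bound and -1.77 without it. At pH 6.0 Gstk1 had 0 counts in NRK-49F, while Gsta2 and Gsta5 had 8 and 14 counts in NRK-52E. Such members passed the filter through groups in which they were high, so these counts and medians describe the tested members only. Gsta4, Gstm7, Gstt2, Gstk1 and Gstz1 were higher in NRK-52E at both pH values. Gsta1, Gstm4, Gstp1, Gstt1, Gsto1, Mgst1, Mgst2 and Mgst3 were lower at both. The difference between the pH effects was called in 6 of 19 members. It was more positive in NRK-52E for Gsta1, Gsta6 and Gstz1, beside 19.3% of all 14679 genes, and more negative for Gstm1, Gstm4 and Mgst3, beside 17.5%. The median of the difference was -0.02 over the members and -0.01 over all genes. Wherever 2 groups did not overlap, an exact test over all splits of the log2(FPM + 1) values gave two-sided p = 0.0286, the smallest value that 4 libraries against 4 allow. Such a value follows from the lack of overlap itself and adds nothing to it.

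N8 stood above the other 3 NRK-52E libraries at pH 6.0 in 12 of the 15 well measured members, all but Gsta6, Gstm1 and Gstt2. Without it 11 members were called in NRK-52E in place of 9, the added ones being Gstm7 and Mgst1. A pH effect that differed between the second numbers was called by edgeR in 0 genes of NRK-52E and 1 of NRK-49F, which is not a member. Library totals in place of TMM factors shifted the median log2 fold change of all genes in NRK-52E by -0.21, and 2900 genes were then called higher and 4815 lower, compared with 3877 and 3916. The members called there were still 9, with 6 higher and 3 lower. The median moved to 0.34 in the comparison of the lines at pH 7.4, with 6165 genes higher and 3195 lower compared with 4102 and 4678, and 6 members higher and 9 lower. It moved to -0.25 in the difference between the pH effects, with 1827 genes more positive and 3584 more negative compared with 2838 and 2574, and 2 and 3 members.

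Fragments that map to several places were counted at each of them, so relatives can hold the same fragments, and the smaller of a pair of counts limits what they can share. Gsta3 had 34 counts in NRK-52E at pH 6.0 beside 56732 of Gsta1, or 0.0599%. The counts of Gsta6 were 1.91% and 2.22% of those of Gsta1 in NRK-52E at pH 7.4 and pH 6.0, and 0.904% and 0.461% in NRK-49F. The share was 1.54% or more in every NRK-52E library and 1.09% or less in every NRK-49F library. Gstm4 had 3.09% and 2.37% of the counts of Gstm7 in NRK-52E, and 21.5% and 50.7% in NRK-49F. Relative to Gstm1, the counts of Gstm4 were 33.8% and 19.8% in NRK-52E and 74.3% and 25.0% in NRK-49F. Gsta2 had 52.8% of the counts of Gsta5 in NRK-49F at pH 6.0, between 45.5% and 64.5% in each library. How many fragments any of these genes share was not tested.

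Of 5 genes tested that supply glutathione, 4 were called higher in NRK-52E, beside 28.2% of all genes, and all 5 in NRK-49F, beside 18.4%. None was called lower, against 28.5% and 19.4% of all genes, with median log2 fold changes of 1.60 and 1.64. Gclm, the modifier subunit of the rate-limiting ligase, had the largest rise, to a mean of 197 FPM from 24.3 FPM in NRK-52E (edgeR adjusted p = 3.14e-08), and 2.06 (SE 0.16, edgeR adjusted p = 1.28e-06) on the log2 scale in NRK-49F. Gsr, the reductase that regenerates glutathione, rose by 1.60 (SE 0.08) and 1.12 (SE 0.10), and Gclc, the catalytic subunit, by 0.84 (SE 0.11) and 1.92 (SE 0.12). Slc7a11, which imports cystine, rose by 1.64 (SE 0.34) in NRK-49F, and in NRK-52E its value of 1.78 (SE 0.61) was not called.

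ABCC transporters, which export conjugates, moved in both directions. Of 4 tested, 2 were called higher and 1 lower in NRK-52E, where the shares of all genes were 28.2% and 28.5%. In NRK-49F 2 were higher and 1 lower, where they were 18.4% and 19.4%. Abcc4 rose by 2.03 (SE 0.20) in NRK-52E and 1.70 (SE 0.15) in NRK-49F, and Abcc5 fell in both, at -0.76 and -0.86. Abcc1 rose by 2.02 (SE 0.26) in NRK-49F, while its 0.37 (SE 0.28) in NRK-52E was not called, and the difference between the effects was -1.66 (SE 0.42, edgeR adjusted p = 0.00306). The lowest library for Abcc1 had 14.9 FPM in NRK-49F at pH 7.4 (median 40.6) and 15.8 FPM in NRK-52E at pH 6.0 (median 34.4). Abcc3 rose by 1.75 (SE 0.25) in NRK-52E, with 0.29 (SE 0.16) in NRK-49F, not called, and a difference of 1.46 (SE 0.31, edgeR adjusted p = 8.92e-04).

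A list of enzymes that act on glutathione conjugates and their products held peptidases, transferases, cysteine conjugate lyases (Kyat1 and Kyat3) and aminoacylases. In NRK-52E 1 of 11 tested was called higher and 8 lower (all genes 28.2% and 28.5%), with a median of -1.90. In NRK-49F 2 of 11 were higher and 6 lower (all genes 18.4% and 19.4%), with a median of -1.06. The dipeptidase gene Dpep1 fell in both lines, at -3.94 (SE 0.37, edgeR adjusted p = 5.27e-06) and -4.08 (SE 0.45, edgeR adjusted p = 1.67e-05), and the aminopeptidase gene Anpep at -4.55 and -1.47. Ggt6, of the gamma-glutamyl transferase family, had 70 counts at pH 7.4 and none at pH 6.0 in NRK-52E. The exact interval for counting error of the ratio of pH 6.0 to pH 7.4 ran from 0 to 0.0584. With 3 counts at pH 6.0 as the floor, Ggt6 was 21.6-fold lower. Its relative Ggt1 rose in NRK-49F at 1.87, and was -0.13 (SE 0.37) and not called in NRK-52E, with a difference of -2.02 (SE 0.36, edgeR adjusted p = 1.77e-04). The aminoacylase gene Acy1 rose in both, at 1.22 and 0.93, whereas Acy3 fell, at -1.83 and -2.52. Ggt5 and Nat8, also on this list, were not analysed here.

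Genes outside the family with a glutathione S-transferase fold, or of the MAPEG group, showed no common direction. Of 18 on the list, 9 were tested in NRK-52E with 4 called higher and 2 lower, against 28.2% and 28.5% of all genes. In NRK-49F 10 were tested, with 3 higher and 2 lower against 18.4% and 19.4%. Mars1 and Vars1, aminoacyl-tRNA synthetases with a domain of this fold, rose in both lines, by 1.15 (SE 0.07) and 1.07 (SE 0.13) in NRK-52E and 1.07 (SE 0.13) and 0.63 (SE 0.11) in NRK-49F. Ptges2 rose by 0.71 (SE 0.12) in NRK-52E. Clic3 fell there, at -0.96, as did Gstcd, at -0.71. Clic5 rose in NRK-49F from 6 to 132 counts, a ratio of 17.0 (exact 95% interval for counting error 7.62 to 47.3), and Clic1 and Clic2 fell there, at -0.50 and -0.55.

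Among regulators of the family 3 of 8 tested were called higher and 2 lower in NRK-52E, with 28.2% and 28.5% of all genes beside them. In NRK-49F 3 were higher and 3 lower, with 18.4% and 19.4% of all genes. Nfe2l2, which encodes Nrf2, rose in NRK-52E, at 0.91 (SE 0.11, edgeR adjusted p = 2.43e-05), and fell in NRK-49F, at -0.37 (SE 0.10, edgeR adjusted p = 0.00754), with a difference of 1.27 (SE 0.15, edgeR adjusted p = 1.75e-06). Maff, a small Maf partner of Nrf2, rose in both, at 2.54 and 0.97. Mafk rose in NRK-52E, at 0.94, and fell in NRK-49F, at -0.46, and their difference was 1.39 (SE 0.22, edgeR adjusted p = 5.56e-05). Bach1, a repressor at the same element, rose in NRK-49F, at 1.34, as did Mafg, at 0.93. In NRK-52E neither was called, with means going from 36.7 to 50.3 FPM for Bach1 and from 26.3 to 57.6 FPM for Mafg. Their libraries there at pH 6.0 ranged from 19.1 to 69.0 FPM and from 18.7 to 86.6 FPM. The receptor genes Nr1i3 and Ahr fell in NRK-52E, at -1.55 and -0.83, and Nr1i3 also in NRK-49F, at -0.54. Keap1, the inhibitor that holds Nrf2 in the cytosol, was at 0.05 in NRK-52E, at 0.03 in NRK-49F, and not called.

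RefSeq promoters of the rat build GRCr8, each 300 bases with 250 before and 50 after the annotated start, were matched by symbol and chromosome for 20 of the 25 members and for 12 of the 15 well measured ones. Gstm3l, Gstm6l, Gstt1, Gstt2 and Mgst2 had none. The letters TGACNNNGC, the core of the antioxidant response element, were sought on both strands and found in 12.1% of all 33469 promoters. They were found in 7 members, of which Gsta1, Gstm5, Gstm7, Gstp1 and Gstz1 were well measured. The others, Gsta2 and Gsta3, stayed below 1 FPM on average in each group. Gstm5 had 2 matches, TGACCACGC and TGACCCCGC, and Gstz1 had TGACGGGGC on the other strand. In Gstp1 the match also holds TGACTCA, the AP-1 element, which 4.63% of all promoters have and which was also found in Gstm5 and Gsto1. No match to TGACNNNGC was in the windows of Gsta4, Gsta6, Gstm1, Gstm4, Gsto1, Mgst1 or Mgst3, which says only that these letters are not there. Matches thus occurred in genes that rose in both lines (Gstp1, Gsta1 and Gstm5) and in genes that fell in NRK-49F (Gstm7 and Gstz1). Gsta2 was called higher in NRK-49F and not tested in NRK-52E, and Gsta3 was not tested in either line. The promoters of Gstp1 (chr1:210769656-210769955, minus strand), Gsta1 (chr9:31216483-31216782, minus strand) and Gstm7 (chr2:198260270-198260569, minus strand) are shown as 1 example each of a pi, an alpha and a mu gene with a match, the first pair rising and the last falling. They run 5′ to 3′ along the gene, and capitals mark the letters found.
Gstp1: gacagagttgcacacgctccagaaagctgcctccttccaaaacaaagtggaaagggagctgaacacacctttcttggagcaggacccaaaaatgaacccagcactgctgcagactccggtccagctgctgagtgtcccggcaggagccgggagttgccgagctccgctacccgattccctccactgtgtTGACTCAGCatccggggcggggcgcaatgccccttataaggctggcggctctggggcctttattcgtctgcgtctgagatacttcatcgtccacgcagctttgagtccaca
Gsta1: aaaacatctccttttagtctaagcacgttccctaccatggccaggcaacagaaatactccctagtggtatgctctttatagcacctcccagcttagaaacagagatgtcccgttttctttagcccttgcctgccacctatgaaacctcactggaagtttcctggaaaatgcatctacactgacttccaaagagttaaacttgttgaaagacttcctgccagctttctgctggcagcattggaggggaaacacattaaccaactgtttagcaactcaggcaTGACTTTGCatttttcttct
Gstm7: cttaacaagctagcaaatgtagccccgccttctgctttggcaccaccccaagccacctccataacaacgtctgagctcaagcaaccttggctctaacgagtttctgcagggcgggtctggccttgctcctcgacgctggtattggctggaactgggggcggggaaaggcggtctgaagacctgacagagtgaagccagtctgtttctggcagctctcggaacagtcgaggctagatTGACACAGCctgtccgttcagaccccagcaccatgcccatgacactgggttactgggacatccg
The match starts at base 190 of the window in Gstp1, at base 281 in Gsta1 and at base 237 in Gstm7.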

How the data were processed

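The authors sequenced paired reads of 150 bp, and the deposited table holds their gene counts for 16 libraries. The submitters' notes name HISAT2 2.1.0, featureCounts and the rn6 genome, whereas the article names an earlier aligner. featureCounts was run so that fragments mapping to several places were counted at each. Every count column was matched to a sample. Counts were analysed in R 4.3.3 with edgeR 4.0.16 (TMM factors, filterByExpr, quasi-likelihood F-test) and DESeq2 1.42.0 (Wald test). The pH effect was fitted to the 8 libraries of each line, and the lines and the difference between the pH effects to all 16 with 1 term per group. A gene was called at a Benjamini-Hochberg FDR below 0.01 in both tools with the same sign. SEs are edgeR's log2 fold change over the root of its F statistic, and intervals are at 95%. The steps were tested on simulated counts. Every member was named, together with genes of 5 lists (glutathione supply, export, breakdown of conjugates, relatives and regulators). Members and lists were chosen with earlier results of these data known. Alternatives changed size factors, filter, tool, threshold, libraries and covariate, and fits within each second number were chosen after seeing the data.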

Additional observations from a re-analysis of the deposited data

Results flagged for a closer look

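In 5 of 60 groups of 4 libraries of the well measured members, 1 library lay far from the other 3 by Dixon's test at the 5% level, and 3 such groups are expected by chance. N13 was the highest of NRK-49F at pH 7.4 for Gsta1 (820 FPM), Gsta6 (8.95 FPM) and Gsto1 (149 FPM). N8 was the highest of NRK-52E at pH 6.0 for Gstp1 (1252 FPM) and Gstz1 (60.7 FPM).

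In 6 members the pH effect differed between the lines. NRK-52E minus NRK-49F on the log2 scale was 1.32 for Gsta1, 2.63 for Gsta6, -2.16 for Gstm1, -1.36 for Gstm4, 0.87 for Gstz1 and -5.08 for Mgst3. The cause of these differences was not tested.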

How the results depend on the processing

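The totals of called members, higher and lower together, stayed within 1.5 times the reported ones under every alternative with 1 exception. In NRK-52E with the libraries of a single second number, 5 members were called (4 higher and 1 lower) with number 21 and 5 (4 and 1) with number 22. These fits, chosen after seeing the data, have 4 libraries in place of 8. By direction, members called lower numbered 2 in place of 4 in NRK-49F without N12 and with number 21 alone. In NRK-52E they numbered 4 in place of 2 without N8. Leaving out 1 library at a time gave 8 to 11 for pH in NRK-52E, 10 to 13 for pH in NRK-49F, 13 to 15 and 17 to 18 for the lines at pH 7.4 and pH 6.0, and 5 to 7 for the line-by-pH term, the pH effect in NRK-52E minus that in NRK-49F. Of the alternative values of the 15 well measured members and of Gsta5, Gsto2 and Gstk1, 1848 kept direction and side of the threshold, 49 lost the call, 16 gained it and 28 changed sign. Gsta2 and Gstt3 are not in this tally. No value that was called changed sign. With library totals the pH effect of Gstm1 in NRK-52E was -0.0816, and the line-by-pH term -0.0106 for Gstm7 and -0.0530 for Gstt2. With number 22 alone the pH effect in NRK-52E was 0.28 for Gsto1, 0.28 for Gstz1 and 0.10 for Mgst1. With number 21 alone it was 0.25 for Gsta4 and 0.17 for Mgst2 in NRK-49F. Leaving out 1 library gave -0.37 to 0.00461 for Gsto1 and -0.29 to 0.0547 for Gstz1 in NRK-52E, and -0.18 to 0.0765 for Gsta4 and -0.27 to 0.0898 for Mgst2 in NRK-49F. For the line-by-pH term it gave -0.37 to 0.11 for Gstp1, -0.31 to 0.0443 for Gstt1 and -0.42 to 0.0460 for Mgst2. Without a change of sign, the same term ran from 0.28 to 0.73 for Mgst1 and from -0.44 to -0.11 for Gstm5. It ran from 0.10 to 0.35 for Gstm7 and from 0.0363 to 0.24 for Gstt2. The cause was not tested. The planned sum over near-identical copies was not run, because no protein sequences were used here. With the second number as covariate 8, 13 and 7 members were called for pH in NRK-52E, pH in NRK-49F and the line-by-pH term.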
